A study of Homo sapiens with 8 samples.

Results

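miR-7-5p is released from the 5′ arm of the miR-7 hairpins. It was the 1 entry of 2867 in the table whose name belongs to miR-7. Entries were taken by name (miR-7 with any copy number and either arm). The entry was chosen by a measured value, its high share of library counts, so that share is described here without a test. HEK293 is an established human embryonic kidney cell line. Small RNA was sequenced from 4 libraries of HEK293 cells transfected with 100 nM of an antisense oligonucleotide (ASO, a short strand made to pair with a given RNA) and from 4 libraries of cells given no ASO, called controls here. All were harvested at 48 h. Its target is miR-31, by the library names, and the stated aim was to look for effects on other small RNAs. No group had an unrelated ASO, and the labels do not say whether controls were mock-transfected, so an effect of this ASO and of transfecting any ASO cannot be told apart.

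MicroRNAs are cut from hairpin transcripts and guide Argonaute proteins to messenger RNAs, chiefly through the seed, bases 2 to 8 of the mature strand. miR-7 is deeply conserved and best known in brain and in endocrine cells of the pancreas and pituitary, and among its reported targets are the growth factor receptor EGFR, the insulin signalling adaptor IRS1, the kinase PAK1, and alpha-synuclein. In neurons the circular RNA CDR1as carries many miR-7 sites and is itself cut under the guidance of miR-671. One miR-7 hairpin lies within the widely transcribed gene HNRNPK, and in non-neural cells the RNA-binding proteins HuR and MSI2 have been reported to hold back its processing.

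The sequences below show why a single entry can stand for several genes. They come from RefSeq (GRCh38.p14), 5′ to 3′. In the mature strands the capitals mark the seed. In the hairpins they mark miR-7-5p.
miR-7-5p: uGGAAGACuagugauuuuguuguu
MIR7-2 hairpin: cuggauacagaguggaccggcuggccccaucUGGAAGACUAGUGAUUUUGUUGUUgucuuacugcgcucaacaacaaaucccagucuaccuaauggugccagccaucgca
MIR7-3 hairpin: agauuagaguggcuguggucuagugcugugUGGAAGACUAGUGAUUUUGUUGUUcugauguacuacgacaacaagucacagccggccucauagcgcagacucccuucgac
miR-7-1-3p: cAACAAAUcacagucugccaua
miR-7-2-3p: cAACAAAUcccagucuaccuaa
miR-3529-3p: aACAACAAaaucacuagucuucca

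The 24 bases of miR-7-5p were found whole in both hairpins shown, at positions 32 to 55 of MIR7-2 and 31 to 54 of MIR7-3, and RefSeq also lists them at MIR7-1. Counts of miR-7-5p therefore cannot be divided among the 3 genes. The 3′ arms do differ. From miR-7-1-3p to miR-7-2-3p there were 4 substitutions in 22 bases, A10C, G17A, A20U and U21A, with positions counted from 1 at the 5′ end of miR-7-1-3p. The name rule found no 3′ arm of miR-7 among the 2867 entries, so how the 3 genes share the signal was not tested. The seed GGAAGAC occurred in 1 of the 2370 mature names of the RefSeq table, miR-7-5p itself. Of the 24 bases, 11 were U, and 8 of these lay in the last 10. The table gives the entry a length of 24.

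In GENCODE 29 (GRCh38), MIR7-1 is on the minus strand of chromosome 9 (83969748 to 83969857), inside HNRNPK and in its direction. Of the 7 HNRNPK transcripts that span it, 6 hold it in an intron and 1, HNRNPK-208, in an exon. MIR7-2 is on the plus strand of chromosome 15 (88611825 to 88611934), and the 1 annotated gene it overlaps is MIR3529 on the minus strand (88611847 to 88611924). MIR7-3 is on the plus strand of chromosome 19 (4770670 to 4770779), in an intron of all 9 spanning transcripts of its long noncoding host gene MIR7-3HG. Since MIR3529 is read from the opposite strand of MIR7-2, miR-3529-3p is the exact reverse complement of miR-7-5p.

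In the controls miR-7-5p took 9.77%, 8.01%, 6.68% and 6.26% of all counts in libraries 1 to 4, from 1025831, 769658, 545329 and 703059 counts. In the ASO libraries it took 6.48%, 5.20%, 5.39% and 6.22%, from 657372, 607055, 599990 and 626913 counts. Control libraries 1 and 2 lay above all others, ASO libraries 2 and 3 lay below all others, and the groups overlapped, since ASO library 1 was above control library 4. The share averaged 7.68% ± 1.58 (SD, n = 4) in controls and 5.82% ± 0.625 (SD, n = 4) with ASO. Without control library 1 the controls averaged 6.98% ± 0.912 (SD, n = 3). Pooled over all 8 libraries the entry held 6.71% of counts, and 6.26% over the 7 without control library 1. Its Wilson 95% intervals were at most 0.0359 percentage points wide, so counting error was far smaller than the spread between libraries.

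**Figure D1:**
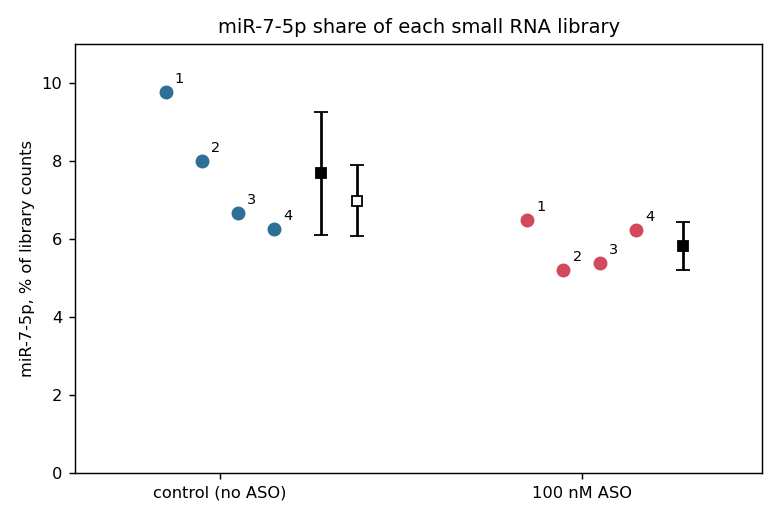
Share of miR-7-5p in each library (y axis, percent of all counts in the library), by group (x axis). Points are libraries with their numbers, filled squares are group means with SD (n = 4), and the open square is the control mean without library 1 (n = 3). Control library 1 stands highest at 9.77%, and the 4 ASO libraries lie between 5.20% and 6.48%.

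Library totals ran from 8168828 counts (control library 3) to 11677123 (ASO library 2), while control library 3 had the third-highest share of miR-7-5p and ASO library 2 the lowest. Known microRNAs carried 99.1% of counts. The target, miR-31-5p, stood at 637 to 1018 CPM with ASO and 350 to 1056 CPM in controls (CPM, counts relative to the library total, scaled with TMM), so it did not separate the groups and gives no check of their labels. Its lowest level was in control library 1, where miR-7-5p was highest, and its fitted log2 fold change of 0.19 (SE 0.33, edgeR adjusted p = 0.851) turned to −0.04 without that library.

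miR-7-5p was the most abundant entry in control libraries 1 and 2, the second in control libraries 3 and 4 and in ASO libraries 1 and 4, and the fifth in ASO libraries 2 and 3. By mean share over 8 libraries it was second at 6.75%, behind miR-21-5p, a microRNA widely raised in tumours, at 7.38%. Adapter ligation favours some sequences, so this order describes the libraries and not molecules per cell. Measured against miR-21-5p in the same library, which needs no scaling, miR-7-5p stood at 118%, 102%, 90.5% and 90.03% of it in control libraries 1 to 4 and at 88.2%, 70.9%, 83.3% and 83.5% in ASO libraries 1 to 4. On this measure every ASO library was below every control, though ASO library 1 and control library 4 were close. This ratio was chosen after the values were seen and was not tested. Groups of 4 that did not overlap in CPM, a different measure on which those of miR-7-5p did overlap, were found in 8.32% of the 745 entries tested. The matching share for ratios to miR-21-5p was not computed.

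miR-7-5p was one of the least steady of the abundant entries. Its share had a coefficient of variation (SD over mean) of 22.1% over 8 libraries, and its highest value was 1.88 times its lowest. Among the 10 most abundant, the one with a larger coefficient was miR-148a-3p, which targets DNA methyltransferases among others, at 31.7%. From the let-7 family, which represses RAS and HMGA2, let-7a-5p was at 3.25% and let-7f-5p at 2.99%. miR-21-5p was at 7.36%, and the miR-92a entries, from MYC-driven clusters, were between 7.67% and 8.32%. Among the 50 most abundant entries miR-7-5p ranked 10 by this coefficient, where the median was 9.09%. Without control library 1 its coefficient was 14.6%, ranking 11 of 50, against a median of 7.45%, so the wide spread did not come from that library alone.

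**Figure D2:**
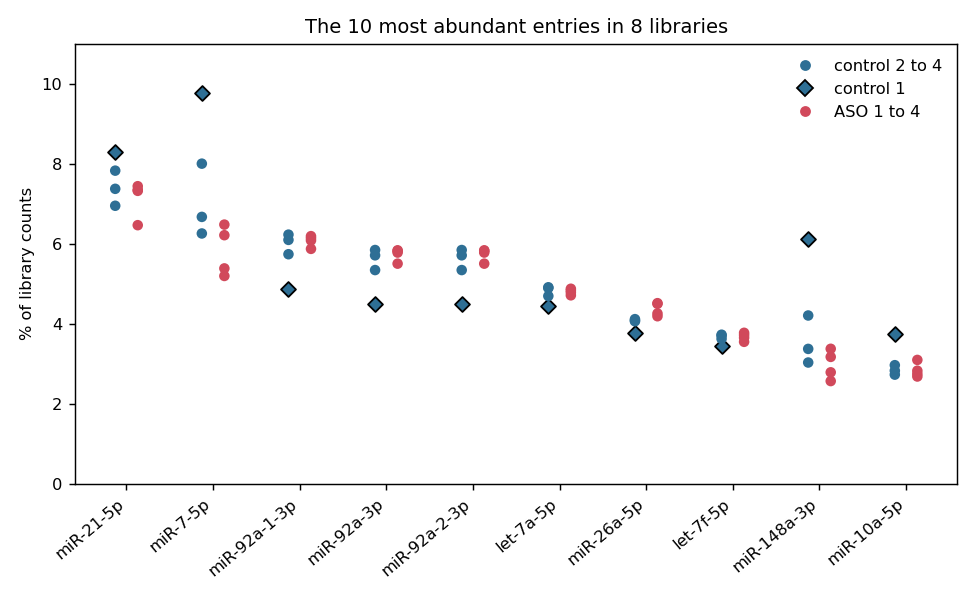
Share of library counts (y axis, percent) of the 10 most abundant entries (x axis, ordered by mean share). Each symbol is 1 library, blue for controls (the outlined diamond is control library 1) and red for ASO. miR-7-5p and miR-148a-3p spread most, at 5.20% to 9.77% and 2.57% to 6.11%, while let-7f-5p stays between 3.44% and 3.78%.

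The comparison of ASO with control asks whether the oligonucleotide aimed at miR-31 moved other small RNAs. For miR-7-5p the difference did not pass the threshold. With ASO its level in libraries 1 to 4 was 67452, 51278, 53962 and 60906 CPM. In the controls, in the same order, it was 101787, 82300, 65738 and 62053 CPM. The means were 58399 ± 7272 CPM with ASO and 77970 ± 18156 CPM in controls (SD, n = 4 each), with overlapping groups, ASO library 1 being above control libraries 3 and 4. The log2 fold change fitted by edgeR's quasi-likelihood test was −0.42 (SE 0.17, 95% interval −0.82 to −0.02), a level 1.34-fold higher in controls, with an unadjusted p of 0.0424 and an adjusted p of 0.445 over all entries.

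In that fit 1 of 745 entries (0.134%) passed the adjusted threshold of 0.05, and miR-7-5p was not it. An unadjusted p under 0.05, as for miR-7-5p, was found in 10.5% of entries, and 64 entries had a smaller p. The fitted change was as large or larger in 239 other entries. The median log2 fold change of all 745 was 0.01. On simulated counts for this comparison, the test called 13.4% of 67 entries changed by 1.5-fold and 37.3% of 67 changed by 2-fold. Most changes of these sizes were thus missed over entries of all levels. Neither the level of miR-7-5p nor its fitted fold was simulated, so how often such a difference in it would be missed was not tested.

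Control library 1 set much of the size. Without it the log2 fold change was −0.25 (SE 0.13, adjusted p = 0.697, 95% interval −0.55 to 0.06), a level 1.19-fold higher in controls. Leaving out another library gave −0.51 (control library 4) to −0.36 (ASO library 2). The sign was the same in all 17 fits. Since an abundant entry can shift the scaling of every other one, TMM factors were also computed without miR-7-5p, and its log2 fold change stayed at −0.42 (SE 0.17, adjusted p = 0.442).

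**Figure D3:**
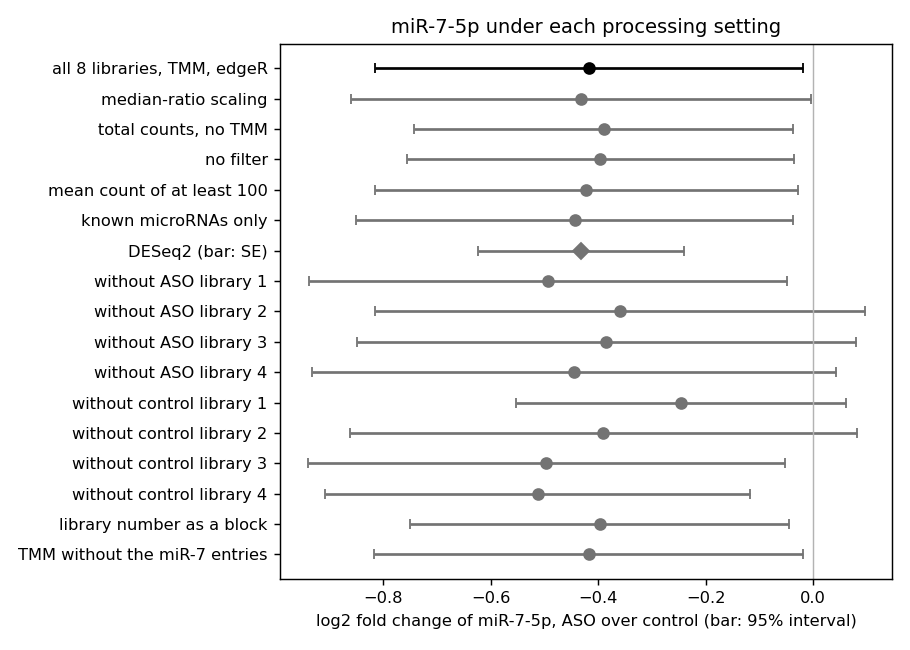
Log2 fold change of miR-7-5p, ASO over control (x axis), under each processing setting (y axis). Points are fitted values and bars 95% intervals, not adjusted for the number of entries (SE for DESeq2, drawn as a diamond). All values lie between −0.51 and −0.25, the smallest in size being the fit without control library 1.

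A set of microRNAs tracked the level of miR-7-5p from library to library. Likeness was measured as Pearson's r of log2(CPM + 0.5) over the 8 libraries, as a description only. The libraries share their scaling, and an entry with a large share lowers the shares of others by arithmetic. The 5 known entries with the highest r were let-7i-5p (r = 0.99), miR-192-5p, which is induced by p53 (0.99), miR-148a-3p (0.99), miR-9903 (0.98) and miR-455-5p (0.98). Their Spearman's rho ran from 0.90 to 0.98. The 5 with the lowest r were miR-15b-5p (−0.99) and miR-16-5p (−0.98), which restrain cyclins and BCL2, miR-548l (−0.99), miR-125a-5p (−0.98) and miR-93-5p of a MYC-driven cluster (−0.98), with rho from −1 to −0.83. None of the 10 passed the ASO comparison, each with an edgeR adjusted p of 0.445 to 0.515.

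Mature sequences of these entries are shown with their seeds in capitals, first those with high r and then those with low r. miR-9903 is named only.
let-7i-5p: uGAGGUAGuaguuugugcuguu
miR-192-5p: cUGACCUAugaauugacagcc
miR-148a-3p: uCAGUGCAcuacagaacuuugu
miR-455-5p: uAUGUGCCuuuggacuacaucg
miR-15b-5p: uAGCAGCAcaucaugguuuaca
miR-16-5p: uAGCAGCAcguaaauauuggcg
miR-548l: aAAAGUAUuugcggguuuuguc
miR-125a-5p: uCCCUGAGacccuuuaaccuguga
miR-93-5p: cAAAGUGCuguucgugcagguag

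None could share the seed of miR-7-5p, since GGAAGAC belonged to that name alone in RefSeq. miR-15b-5p and miR-16-5p shared AGCAGCA with each other. let-7i-5p, a let-7 family member with the seed GAGGUAG, stood at 23234, 20069, 16900 and 16043 CPM in control libraries 1 to 4 and at 17227, 14426, 14837 and 16740 CPM in ASO libraries 1 to 4. Its 2 highest and 2 lowest libraries were those of miR-7-5p. miR-148a-3p was 63687, 43271, 33231 and 30069 CPM in the controls and 35137, 25351, 27933 and 31094 CPM with ASO, again highest in control libraries 1 and 2 and lowest in ASO libraries 2 and 3. The count of miR-7-5p over that of miR-148a-3p was 1.90 to 2.06 in 7 libraries and 1.60 in control library 1, where miR-148a-3p stood further above its other libraries.

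In the other direction, miR-93-5p stood at 3483, 5256, 6556 and 7584 CPM in control libraries 1 to 4 and at 7280, 9743, 9467 and 6789 CPM in ASO libraries 1 to 4. It was lowest in control libraries 1 and 2 and highest in ASO libraries 2 and 3, the reverse of miR-7-5p. miR-16-5p was 479, 681, 821 and 928 CPM in the controls and 948, 1139, 1124 and 907 CPM with ASO, with the same 2 lowest and 2 highest libraries as miR-93-5p.

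**Figure D4:**
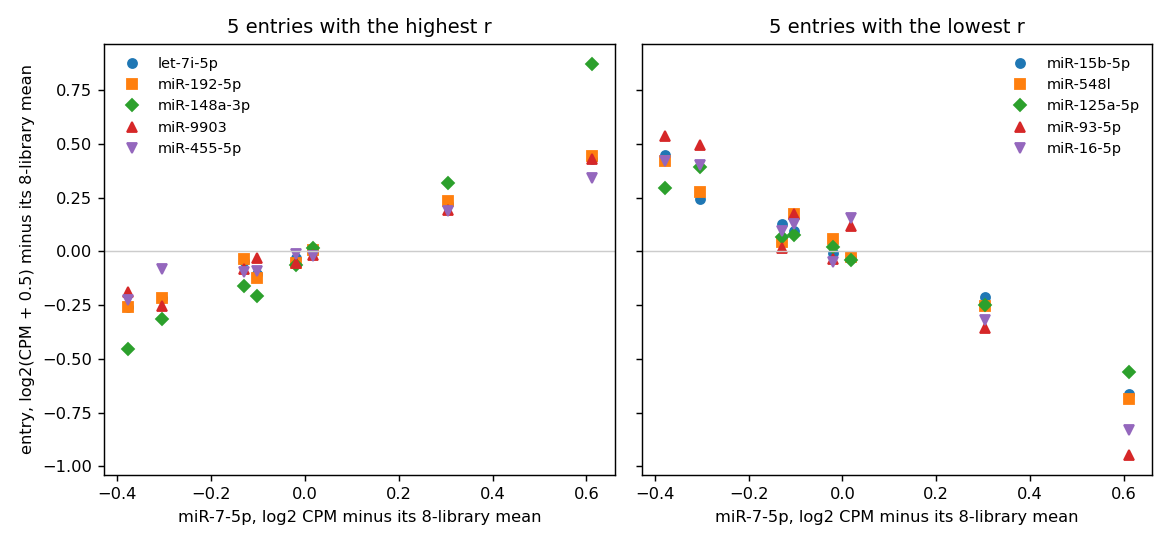
Each entry's log2(CPM + 0.5) minus its mean over 8 libraries (y axis) against log2 CPM of miR-7-5p minus its own mean (x axis), 1 point per library, for the 5 known entries with the highest r (left) and the 5 with the lowest r (right). The rightmost points are control library 1, and the entries range from r = 0.98 to 0.99 on the left and from −0.99 to −0.98 on the right.

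miR-7-5p had more such partners than most entries. Of the 538 other tested known entries, 36 had an r of at least 0.9 with miR-7-5p and 54 an r of at most −0.9, together 16.7%. Over all tested known entries the median number of such partners was 3, and over the 320 with a mean count of at least 100 it was 10, with 54 entries having more partners than the 90 of miR-7-5p and a maximum of 112. Without control library 1 the count was 54, with 24 positive and 30 negative partners, and 5 entries had more. With each group's mean subtracted, so that the ASO comparison itself could not contribute, it was 81. The 10 named entries stayed at an r of at least 0.94 in size without control library 1. All these partner counts are of entries, so copies of 1 microRNA are each counted. Examples are miR-128-1-3p (r = 0.95) with miR-128-2-3p (0.94), and miR-103a-1-3p with miR-103a-2-3p (both −0.96).

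**Figure D5:**
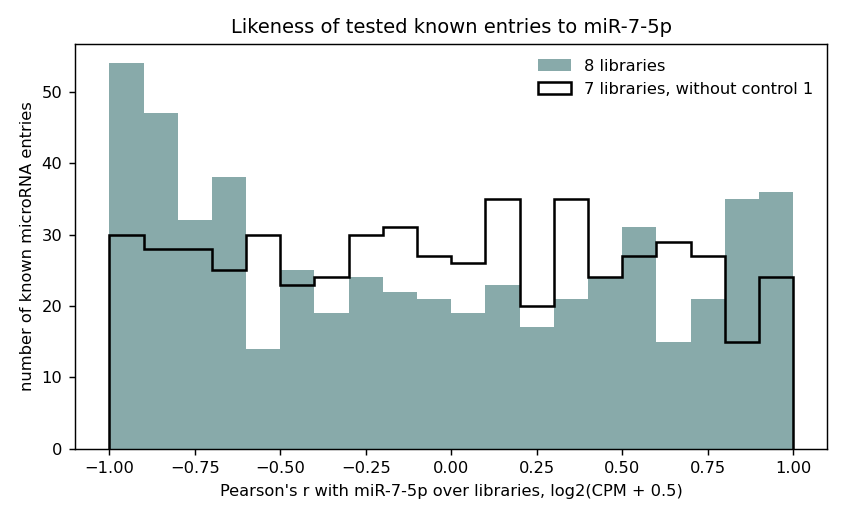
Number of tested known entries (y axis) by Pearson's r with miR-7-5p over libraries (x axis), from 8 libraries (filled) and from the 7 without control library 1 (line). With 8 libraries the counts pile up at both ends, with 54 entries at or below −0.9 and 36 at or above 0.9, and with 7 libraries these fall to 30 and 24.

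Neighbours of the miR-7 genes had few counts. miR-1179, whose gene lies 3627 bases before MIR7-2 on the same strand, had 8, 0, 11 and 0 counts with ASO (libraries 1 to 4) and 0, 4, 3 and 9 counts in controls. miR-3529-5p, from the strand opposite MIR7-2, had 0, 6, 0 and 0 counts with ASO and 0, 0, 5 and 7 in controls. Neither met the minimum of a mean count of 10, so neither was tested, and in the libraries at 0 that count allows up to 3 counts, or 0.257 to 0.312 CPM before TMM scaling. Both were at 0 in control library 1, which held the most miR-7-5p, and also in ASO library 4. miR-1179 was at 0 in ASO library 2 as well, where the share of miR-7-5p was lowest.

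Of the CDR1as circuit the table listed miR-671-3p, the opposite arm to the strand that directs cleavage of CDR1as. It stood at 522, 388, 353 and 317 CPM in control libraries 1 to 4 and at 326, 277, 285 and 351 CPM in ASO libraries 1 to 4. Like miR-7-5p it was highest in control libraries 1 and 2 and lowest in ASO libraries 2 and 3 (r = 0.96, or 0.91 without control library 1). It did not pass the test, with a log2 fold change of −0.35 (SE 0.16, edgeR adjusted p = 0.445).

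Among endocrine and neural microRNAs, the tissues in which miR-7 is best known, 11 entries were listed and 10 tested, and 0 rose and 0 fell in edgeR's test, where 0.134% of all entries passed. An unadjusted p under 0.05 was found for 1 of the 10, against 10.5% of all entries. The median log2 fold change was −0.03, with 5 of 10 above 0, against 385 of all 745 entries. In the sensory-organ cluster, miR-182-5p (8188 ± 123 CPM in controls and 8460 ± 512 CPM with ASO, log2 fold change 0.05), miR-183-5p (7479 ± 690 and 6897 ± 298 CPM, −0.12) and miR-96-5p (369 ± 9.47 and 420 ± 48.9 CPM, 0.19) had r of −0.10, 0.92 and −0.46 with miR-7-5p. For miR-96-5p it was −0.27 without control library 1 and −0.06 with each group's mean subtracted, where that of miR-182-5p turned to 0.21. miR-9-5p, a microRNA of neural progenitors, had an r of 0.60 (0.29 without control library 1), and the activity-induced miR-132-3p −0.35 (0.22 with each group's mean subtracted).

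The neural microRNA miR-129-5p had the highest r of that list over 8 libraries, at 796, 567, 470 and 418 CPM in control libraries 1 to 4 and 441, 383, 342 and 466 CPM in ASO libraries 1 to 4 (r = 0.96, log2 fold change −0.46, adjusted p = 0.445 by edgeR). miR-375-3p, the islet microRNA, was far lower at 49.7 ± 2.27 CPM in controls and 52.6 ± 5.02 CPM with ASO, with an r of −0.63. miR-184 had the smallest unadjusted p of the list in edgeR's test, 0.00327. It stood at 33.1 ± 8.99 CPM in controls and 18.1 ± 2.12 CPM with ASO (log2 fold change −0.87, edgeR adjusted p = 0.349, r = 0.94). It was among the 23 of 745 entries that passed in DESeq2 (−0.88, adjusted p = 0.00805). Without control library 1 its r of 0.92 was above the 0.91 of miR-129-5p. Both miR-375-3p and miR-184 were named after their values were seen, while miR-129-5p was named by its abundance in the list.

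Of the microRNAs reported to repress EGFR or IRS1, as miR-7-5p is, 10 were listed and 8 tested. Of these, 0 rose and 0 fell in edgeR's test, where 0.134% of all entries passed. An unadjusted p under 0.05 was found for 2 of the 8, miR-27a-3p and miR-146a-5p, against 10.5% of all entries. miR-146a-5p, named after its values were seen and induced by NF-kB, had a log2 fold change of 0.41 (edgeR adjusted p = 0.402). It was among the 23 of 745 entries that passed in DESeq2 (adjusted p = 0.042). The median log2 fold change was 0.04, with 4 of 8 above 0, against 385 of all 745 entries. The brain-enriched miR-128-1-3p stood at 21436 ± 3251 CPM in controls and 18442 ± 1878 CPM with ASO (−0.22, edgeR adjusted p = 0.48), and miR-128-2-3p at 17463 ± 2396 and 15294 ± 1489 CPM (−0.19), both with an r of 0.94 to 0.95 with miR-7-5p. These 2 entries name copies of 1 microRNA and are not independent. miR-27b-3p (15624 ± 2003 CPM in controls and 16696 ± 1340 CPM with ASO) had an r of −0.76, or −0.32 without control library 1. miR-27a-3p (1004 ± 34.1 and 1166 ± 130 CPM) had an r of −0.64, or −0.32 with each group's mean subtracted. miR-126-3p of endothelium and miR-146b-5p had log2 fold changes of −0.02 each, and both signs turned with total-count scaling.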

How the data were processed

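Per the labels' protocols, RNA came from a Qiagen kit and small RNA libraries from a NEB kit. The submitters' processing notes name bcl2fastq 2.20, Trimmomatic 0.30, edgeR 3.4.6 and GRCh38; the aligner is not given in the sources used here, nor is the counter. The authors deposited 1 table with a raw count per entry and library, used for all tests. Its columns headed TPM are CPM: each deposited value is the count divided by the column total, with no length correction, within 0.223 CPM. Its length column is in nucleotides.

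The filter kept entries above 0 in at least 4 of 8 libraries whose counts averaged 10 or more (539 known, 206 predicted), which were tested with edgeR 4.0.16 (R 4.3.3; TMM, trended dispersion, quasi-likelihood, two-sided, Benjamini-Hochberg over 745). SE was the log2 fold change over the square root of F. DESeq2 1.42.0 was an alternative. The test was checked on simulated data. The planned test of 3′ over 5′ arm could not be run, since the name rule covers both arms and found only miR-7-5p. Entries named were miR-7, miR-31-5p, the 10 most abundant, the 5 highest and 5 lowest r (identical counts once), and up to 6 of each of 4 lists, most abundant first. The member and the lists were chosen with earlier results of these data known. No label says that cultures were separate, so the p-values speak of library spread, which can be technical. Replicate pairs differed by more than counting allows (lowest chi-square over its degrees of freedom, 135). The Wilson intervals of the shares cover counting error only, while those of the fold changes also take in the spread between libraries.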

Additional observations from a re-analysis of the deposited data

How the results depend on the processing

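miR-7-5p kept its sign and missed the adjusted threshold in all 16 alternatives, with log2 fold changes of −0.51 to −0.25 and adjusted p of 0.162 (DESeq2) to 0.705. Its share, ASO minus control, was −1.86 percentage points, and −2.33 to −1.16 on leaving out 1 library. The count of entries past the threshold, 1 in the main test, was 0 without a filter, 5 with a mean count of at least 100, 4 among known microRNAs, 23 with DESeq2 (miR-184 and miR-146a-5p among them), and 0 to 5 on leaving out 1 library (0 without control library 2; 5 without control library 4; 2 without control library 1 or 3 or ASO library 1 or 4). With a replicate block on the library number it was 0, and miR-7-5p was at −0.40 (adjusted p = 0.509). Same-numbered libraries did not deviate together (correlations −0.04 to 0.25; 2 of 8 libraries matched their own number best), so numbers were not taken as pairs. The number of entries with r of at least 0.9 in size ran from 54 (without control library 1) to 120 on leaving out 1 library, and was 81 with group centring and 89 to 100 with another pseudocount or scaling. For this count the centring, the scalings and the leaving out of libraries other than control library 1 were chosen after seeing the data. Signs turned for miR-31-5p without control library 1 (−0.035 to 0.412 on leaving out 1 library), for miR-126-3p with total-count scaling (0.0052) and without control library 1 (−0.0503 to 0.0336), and for miR-146b-5p with total-count scaling (0.00844), without a filter (0.00249), and without ASO library 2 or control library 1 (−0.0621 to 0.0482). The counting error of miR-7-5p was small beside its spread between libraries.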

Other observations

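The sequence of miR-7-5p is 33.3% G or C and 45.8% U. RefSeq held a mature sequence for 471 of the 539 tested known entries (87.4%). Entries with an r of at least 0.9 had a median of 50% G or C (29 with a sequence), those with an r of at most −0.9 a median of 47.8% (46 with a sequence), and the rest 50% (395 with a sequence). The median percentage of U was 31.8%, 26.1% and 27.3% in the same order. Across 470 entries other than miR-7-5p, r with miR-7-5p had a Pearson correlation of 0.06 with the percentage of G or C and 0.02 with that of U, given as a description across entries, which are not independent.

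The target miR-31-5p ran against miR-7-5p over the 8 libraries (r = −0.85), with −0.59 without control library 1 and −0.92 with each group's mean subtracted.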
